A study of Homo sapiens with 29 samples.

Results

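The genes described here are the ephrins and their Eph receptors, the semaphorins with their plexin and neuropilin receptors, the SLITs with the ROBO receptors, and the netrins with DCC and the UNC5 receptors. They were taken by gene symbol from the array's probe annotation, which gave 66 genes on 108 probes, out of 20046 genes and 47323 probes in all. Transcript levels came from Illumina bead arrays of HuES6, a human embryonic stem (ES) cell line, that was induced to differentiate toward heart muscle. The FB arm received FGF2 (10 ng/ml) and BMP4 (1 ng/ml), the BW arm BMP4 and the compound the labels call CHIR00921 (1 uM, standing for WNT activation), and the FW arm FGF2 and that compound. The FBW arm received all of them on day 0 and served as the complete induction. The labels give the same protocol text for all cultures, with insulin given on day 0 only and the WNT inhibitor IWP-2 (2 uM) on days 2 and 3. Each arm had 1 array on each of days 1, 2, 3, 4, 5, 6 and 8, and undifferentiated cells on day 0 had 1 array, 29 in all. All cells came from 1 line, and no culture was repeated within an arm and day.

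These families were named for steering growing axons, and they act in many other tissues by attracting or repelling cells and by setting boundaries. Ephrins sit in the membrane of one cell and bind Eph receptor tyrosine kinases on the neighbouring cell, and both sides can signal. Semaphorins, secreted or membrane-bound, signal through plexins, with neuropilins as co-receptors of the secreted class, while SLITs bind ROBO receptors and netrins bind DCC and UNC5 receptors. In the forming heart and vessels, ephrin-B2 and EPHB4 mark arterial and venous endothelium, and SEMA3C, PLXNA2, PLXND1 and the neuropilins take part in building the outflow tract, as known from mice.

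The arrays detected between 16218 and 18796 probes each, at a detection p-value under 0.01. Values are normalised log2 signals, in which 1 unit is a 2-fold change, and signals at or below a level between 4.87 and 5.21, depending on the array, were not well above background. With 1 array per arm and day, a test between arms uses the several days of a window in place of repeats, so its p-value measures how steady a difference was over days and not how it varies between separate differentiations. Neighbouring days are related, which makes these p-values too small. FB, BW and FW were all set against the same FBW arrays, and the labels say that the FBW arrays of 2 days, 3 and 6, are shared with another series. In bulk RNA, fewer cells of a type cannot be told apart from less RNA per cell. Undifferentiated ES markers had a summed signal of 6382 to 15551 in FB, 5133 to 10030 in BW, 7179 to 16422 in FW and 1746 to 5997 in FBW on days 4 to 8, against 22047 on day 0. The cardiomyocyte markers summed to 374 to 1715 in FB, 909 to 40473 in BW, 332 to 531 in FW and 5461 to 57405 in FBW over the same days, so marker levels differed between the arms as well.

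Of the 66 genes, 49 were detected on at least 3 arrays, and 25 of these on all 29. Another 7 were detected on 1 or 2 arrays only: DCC, EPHA3, EPHA8, PLXNA4, ROBO2, SEMA3D and SEMA3G. A further 10 were detected on none: EFNA2, EFNA3, EFNA5, EPHA5, EPHA6, EPHA7, PLXNB3, PLXNC1, ROBO4 and SLIT1. Detection was uneven among the families. All 13 membrane-bound semaphorins of classes 4 to 7, all 4 EPHB receptors on the list and all 3 ephrin-Bs were detected on at least 3 arrays. Only 4 of 9 EPHA receptors and 2 of 5 ephrin-As were, and among the SLIT and netrin receptors DCC, ROBO2 and ROBO4 fell outside the 49. The map of all 49 genes shows both steady genes, such as the ephrin-A EFNA4 and the receptor EPHA10, and genes with a strong course.

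**Figure D1:**
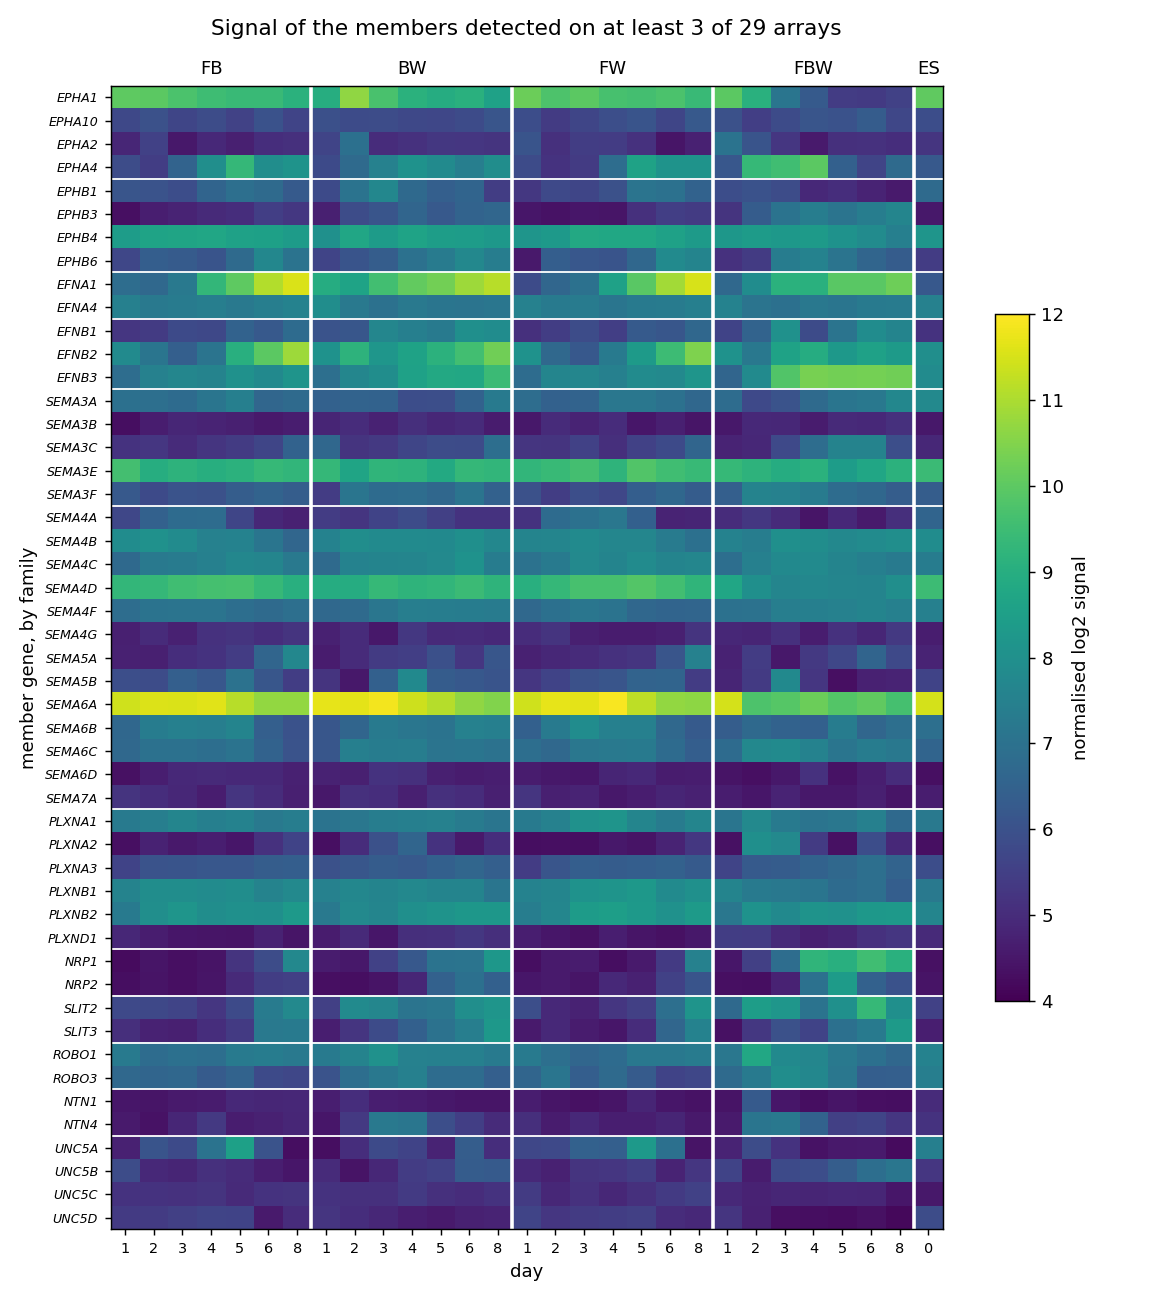
Normalised log2 signal (colour, 4 to 12) of the 49 genes detected on at least 3 of 29 arrays, with genes in rows by family and arrays in columns by arm and day, the day 0 ES array last. EPHA1 and SEMA4D keep a high signal in the FB, BW and FW columns and a lower one in the FBW columns from day 3 on, while NRP1 and EFNB3 are highest in the late FBW columns.

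On days 4 to 8, 27 of the 47 genes tested differed between FB and FBW at an adjusted p under 0.05. In FB 11 were higher and 16 lower, where 27.9% of all 12060 genes tested were higher and 26.1% lower. In FW 13 were higher than in FBW and 15 lower, beside 29.9% and 28% of all genes. In BW 8 were higher and 3 lower, beside 13.2% and 12.5% of all genes. These counts are near the background of a comparison in which a large share of the array differed, so the number of calls says nothing particular about guidance genes. The median size of a difference over the list was 0.67 in FB, 0.42 in BW and 0.65 in FW, against 0.41, 0.25 and 0.44 over all genes tested. Counted over the 3 arms and both windows, 31 of the genes were called at least once, and 28 of them had the same sign on every day of that window. No such pooled count over all genes is given here, so these numbers too say nothing particular about guidance genes.

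**Figure D2:**
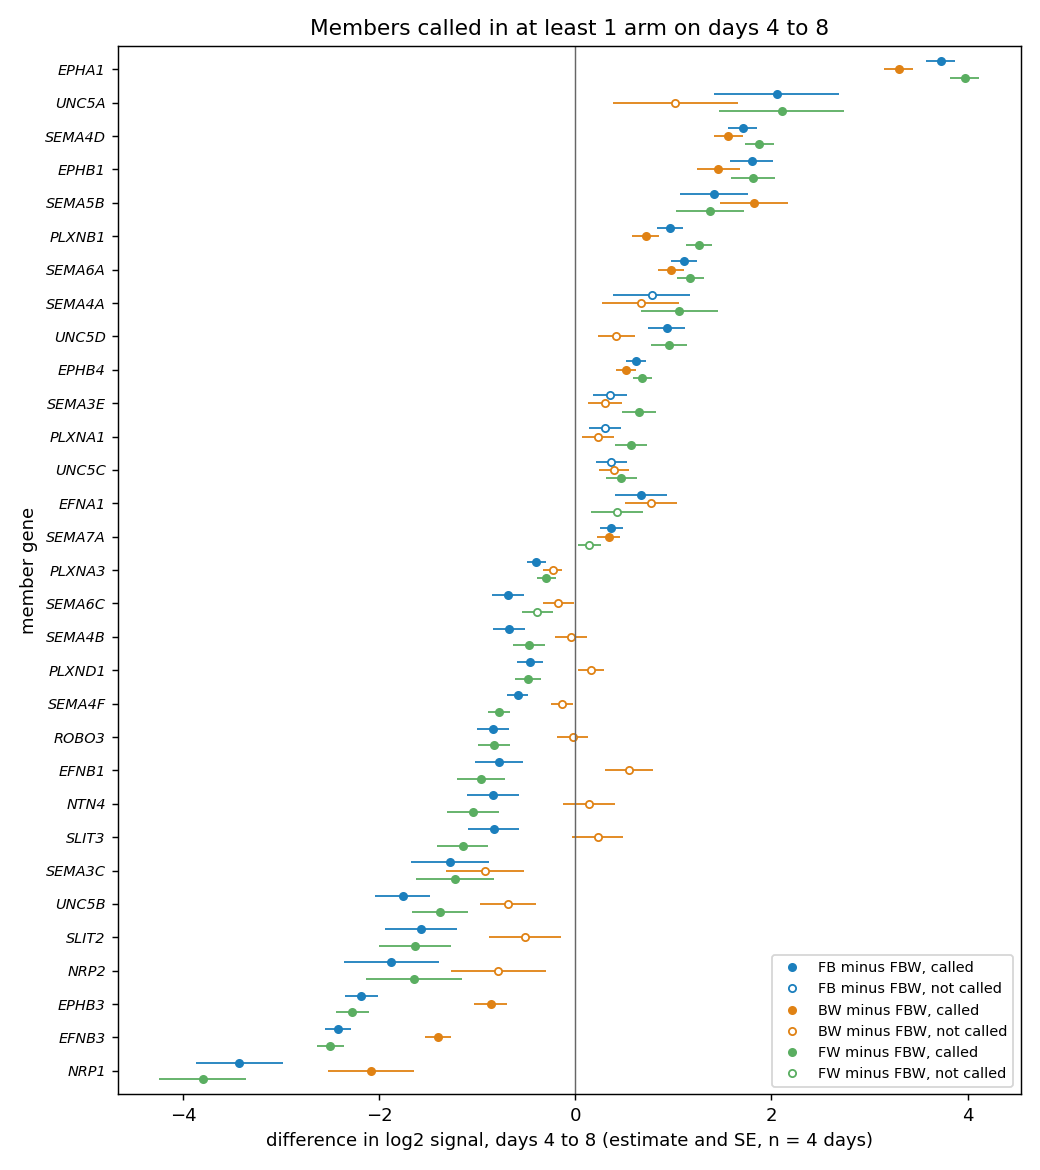
Difference in log2 signal on days 4 to 8 (horizontal axis, estimate with its SE over 4 days) for each gene called in at least 1 arm, FB in blue, BW in orange, FW in green, each minus FBW; filled points are called. EPHA1 stands at 3.73 in FB, 3.30 in BW and 3.97 in FW, NRP1 at -3.43, -2.08 and -3.80, and the BW point lies nearer to 0 than those of FB and FW for EFNB3, EPHB3 and NRP1.

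Among the ephrin ligands, EFNB3, a transmembrane ephrin, was lower in every arm that lacked a factor. On days 4, 5, 6 and 8 it measured 7.59, 8.04, 7.80 and 8.13 in FB. The same days gave 8.59, 8.83, 8.80 and 9.44 in BW and 7.47, 7.85, 7.77 and 8.16 in FW. FBW held a plateau of 10.37, 10.28, 10.33 and 10.25, above every array of the other arms, and day 0 was at 7.87. The differences were -2.42 ± 0.13 in FB (SE, 4 days, adjusted p = 9.44e-08 by limma), -1.40 ± 0.13 in BW (adjusted p = 3.52e-05) and -2.50 ± 0.13 in FW (adjusted p = 6.01e-08). In fold terms EFNB3 was 5.35-fold lower in FB, 2.63-fold in BW and 5.64-fold in FW.

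EFNB1, the ephrin-B encoded on the X chromosome and known for its part in skull and face development, was lower in FB by -0.78 ± 0.24 (adjusted p = 0.0174) and in FW by -0.96 ± 0.24 (adjusted p = 0.00526). On day 4 it stood at 5.74 in FB, 7.44 in BW and 5.48 in FW. The FBW course was uneven, with 8.06, 5.82, 7.09, 7.89 and 7.60 on days 3, 4, 5, 6 and 8, so on day 4 FBW was as low as FB and FW. The FB call ended without day 6 (-0.49, adjusted p = 0.144) or without day 8 (-0.77, adjusted p = 0.065). EFNB2, the arterial ephrin, did not pass the test in any arm, and its courses crossed. It stood at 7.09 in FB and 7.29 in FW on day 4, below the 8.97 of FBW, and at 10.84 in FB, 10.25 in BW and 10.45 in FW on day 8, above the 8.37 of FBW.

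EFNA1, an ephrin-A anchored by a lipid tail, climbed in all 4 arms. Day 8 against day 1 gave 11.55 and 6.86 in FB, 11.13 and 8.96 in BW, 11.51 and 5.83 in FW, and 10.25 and 6.72 in FBW. Over the 4 arms the change was 4.02 ± 0.48 (adjusted p = 1.33e-06 by limma with arm as a block). BW stood apart early, at 8.96 on day 1, where no other arm exceeded 6.86 and day 0 was at 6.21. Between arms on days 4 to 8, EFNA1 passed the test in FB (0.67 ± 0.26, adjusted p = 0.0472), with 0.77 ± 0.26 in BW (adjusted p = 0.0501) and 0.43 ± 0.26 in FW (adjusted p = 0.186). A second EFNA1 probe was called in each arm by limma, at 0.65 in FB (adjusted p = 0.0274), 0.81 in BW (adjusted p = 0.0211) and 0.58 in FW (adjusted p = 0.0428). For the first probe, the FB call was lost without day 5 (0.88, adjusted p = 0.0582), day 6 (0.52, adjusted p = 0.228) or day 8 (0.47, adjusted p = 0.185). The neighbours of EFNA1 on chromosome 1 did not share the course: EFNA3, with no protein-coding gene in between, was detected on no array, and EFNA4 lay between 7.24 and 7.54 in FB and between 6.94 and 7.54 in FBW.

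Among the Eph receptors, EPHA1 and EPHB3 moved in opposite directions, and EPHA1 had the largest difference of the 47 genes in FB, BW and FW alike. EPHA1, a kinase found in epithelia, measured 9.50, 9.44, 9.43 and 9.10 in FB on days 4, 5, 6 and 8. BW gave 9.11, 8.97, 9.09 and 8.58, and FW gave 9.66, 9.62, 9.74 and 9.43. In FBW it was at 6.27, 5.41, 5.35 and 5.54, so no array of any other arm came near the FBW arrays, and day 0 was at 10.04. EPHA1 was thus 13.2-fold higher in FB (3.73 ± 0.15, adjusted p = 1.42e-08), 9.82-fold in BW (3.30 ± 0.15, adjusted p = 7.91e-08) and 15.7-fold in FW (3.97 ± 0.15, adjusted p = 1.10e-08). The FBW level was still 9.98 on day 1 and 9.09 on day 2, and stood at 7.10 on day 3.

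EPHB3, an Eph receptor of the B class that binds the transmembrane ephrins, showed the reverse. It measured 4.94, 5.06, 5.48 and 5.29 in FB, 6.61, 6.24, 6.55 and 6.64 in BW, and 4.45, 5.10, 5.48 and 5.38 in FW on days 4, 5, 6 and 8. FBW was at 7.38, 7.09, 7.38 and 7.65, and day 0 at 4.53 was not above background. The arms did not overlap with FBW, and the differences were -2.18 ± 0.17 in FB (adjusted p = 1.20e-06), -0.86 ± 0.17 in BW (adjusted p = 0.00318) and -2.27 ± 0.17 in FW (adjusted p = 7.41e-07). EPHB3 was detected on 3 of 4 late arrays in both FB and FW, so those sizes rest in part on signals at background. The BW arrays lay between those of FBW and those of FB and FW on each of these days.

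For both receptors, whose differences had opposite signs in every arm, the 250 bases before the RefSeq transcription start are printed 5′ to 3′ on the gene's own strand, with CpG dinucleotides in capitals. EPHA1 lies on the minus strand at chr7:143408857-143409106 and EPHB3 on the plus strand at chr3:184561535-184561784, in GRCh38.p14 as given by RefSeq.
EPHA1: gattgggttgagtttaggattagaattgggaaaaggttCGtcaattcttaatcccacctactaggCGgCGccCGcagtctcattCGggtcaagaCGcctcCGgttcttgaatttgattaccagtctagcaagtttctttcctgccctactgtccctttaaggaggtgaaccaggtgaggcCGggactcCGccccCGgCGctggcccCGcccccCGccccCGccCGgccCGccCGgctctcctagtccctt
EPHB3: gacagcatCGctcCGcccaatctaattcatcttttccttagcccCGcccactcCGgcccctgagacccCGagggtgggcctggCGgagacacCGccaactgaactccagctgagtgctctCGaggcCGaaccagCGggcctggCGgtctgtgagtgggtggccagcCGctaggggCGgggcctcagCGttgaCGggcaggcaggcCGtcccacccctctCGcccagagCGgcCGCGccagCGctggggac
The EPHA1 stretch holds 17 CpG and the EPHB3 stretch 21, so both are CpG-dense although their courses were opposite. RefSeq promoters, from 250 bases before to 50 bases after the start, were found for 57 of the 66 genes. Read on both strands, the TCF/LEF letters CTTTGAT occurred in 1 of the 57 (SEMA6D) and in 2.62% of 35116 promoters. The GATA letters AGATAA occurred in 6 of the 57 and 10.3% of all, the T-box letters GGTGTGA in 1 (SEMA3D) and 3.45%, and the SMAD-type letters GGCGCC in 17 and 19.2%. EPHA1 and EFNA1 were among the 17 and EPHB3 was not, and a match is a description of the letters only.

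EPHB1, a further B-class receptor, was higher than FBW on every late day in each arm, by 1.80 ± 0.22 in FB (adjusted p = 3.97e-05), 1.46 ± 0.22 in BW (adjusted p = 0.000748) and 1.81 ± 0.22 in FW (adjusted p = 3.14e-05). It measured 6.57, 6.92, 6.75 and 6.27 in FB and 4.93, 5.03, 4.79 and 4.57 in FBW, where it was detected on 1 of the 4 late arrays. BW had its own high at 7.05 on day 2 and 7.72 on day 3, when FB stood at 6.05 and 5.89 and FBW at 6.00 and 5.85. EPHB4, the venous receptor of ephrin-B2, differed little, by 0.62 ± 0.10 in FB (adjusted p = 0.000302), 0.51 ± 0.10 in BW (adjusted p = 0.00342) and 0.68 ± 0.10 in FW (adjusted p = 0.000128). Its signal lay between 8.03 and 8.84 on all FB, BW and FW arrays, and the lowest array of all was FBW on day 8 at 7.44.

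EPHB6, a receptor without kinase activity, passed no test between arms but was higher on day 8 than on day 1 by 1.83 ± 0.38 (adjusted p = 0.000407). EPHA10, which also lacks kinase activity, stayed between 5.39 and 6.32 on all 29 arrays. EPHA2, an epithelial receptor, was detected on 20 arrays, and its highest signal was 7.05, in FBW on day 1, followed by 6.97 in BW on day 2. It fell by 0.89 ± 0.34 on the log2 scale between day 1 and day 8 (adjusted p = 0.0325), with 1 arm of 4, FB, higher on day 8.

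**Figure D3:**
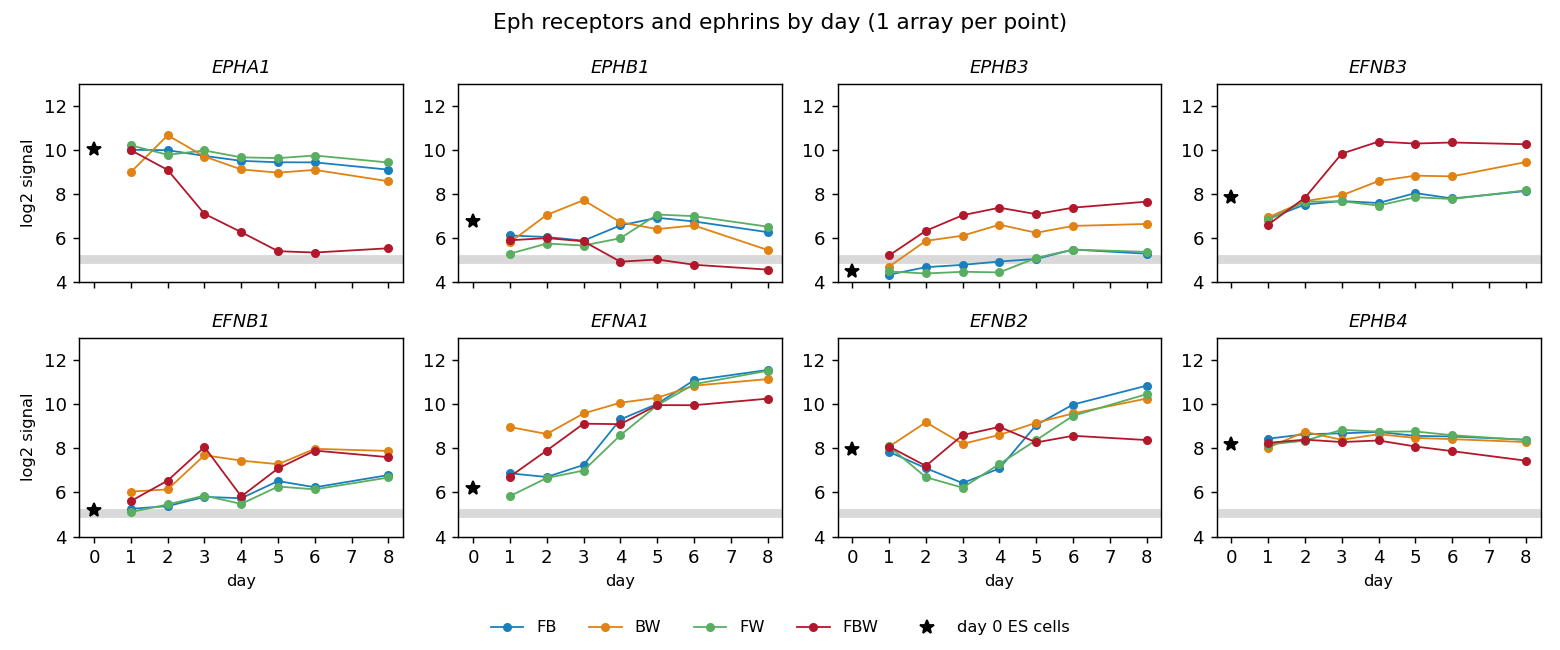
Normalised log2 signal (vertical axis) against day (horizontal axis) for 8 Eph receptors and ephrins, 1 array per point, FB in blue, BW in orange, FW in green, FBW in red and the day 0 ES array as a star; the grey band, from 4.87 to 5.21, is the level at or below which probes were not well above background. EPHA1 on day 8 is at 8.58 or above in FB, BW and FW and at 5.54 in FBW, EFNB3 and EPHB3 climb highest in FBW with BW in between, and EFNA1 climbs in all arms.

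EPHA4, a receptor that binds both ephrin classes, had an early high in FBW. On days 2 and 3 it measured 5.47 and 6.55 in FB, 6.76 and 7.52 in BW, and 5.18 and 5.40 in FW. FBW was at 6.17 on day 1, 9.36, 9.55 and 9.99 on days 2, 3 and 4, and 6.46, 5.64 and 6.76 on days 5, 6 and 8, an early high that the other arms did not show. They came up later, to 9.32 in FB and 8.60 in FW on day 5 and 8.07 in BW on day 4, and stayed at 7.93 to 8.11 on day 8, above the 6.76 of FBW. The courses crossed within the window of days 4 to 8, where EPHA4 was not called in FB (1.11 ± 0.71, adjusted p = 0.202).

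Semaphorins of the membrane-bound classes went both ways. SEMA4D, known from lymphocytes and as a ligand of PLXNB1, was higher than FBW by 1.70 ± 0.15 in FB (adjusted p = 2.92e-06), 1.56 ± 0.15 in BW (adjusted p = 3.13e-05) and 1.88 ± 0.15 in FW (adjusted p = 1.19e-06). On days 4, 5, 6 and 8 it measured 9.64, 9.66, 9.34 and 9.03 in FB, 9.21, 9.27, 9.44 and 9.19 in BW, and 9.69, 9.87, 9.58 and 9.23 in FW. FBW was at 7.70, 7.63, 7.60 and 7.94, well apart from the other arms, which remained near the 9.49 of day 0. PLXNB1, the plexin that binds SEMA4D, differed in the same direction, by 0.97 ± 0.13 in FB (adjusted p = 9.67e-05), 0.72 ± 0.13 in BW (adjusted p = 0.00262) and 1.26 ± 0.13 in FW (adjusted p = 1.12e-05). FBW PLXNB1 signals were 7.10, 6.79, 6.92 and 6.40 on the late days, below all late arrays of the other arms and below the 7.23 of day 0.

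SEMA6A, a transmembrane semaphorin that binds class A plexins, lost signal late in the arms without a factor, to 10.71 in FB, 10.49 in BW and 10.64 in FW on day 8. In FBW it was at 11.48 on day 1, as on day 0, and between 9.64 and 10.21 from day 2 on. Late differences were 1.11 ± 0.13 in FB (adjusted p = 3.44e-05), 0.98 ± 0.13 in BW (adjusted p = 0.000416) and 1.17 ± 0.13 in FW (adjusted p = 1.88e-05), and the arms did not overlap with FBW. Day 8 was below day 1 in all 4 arms, by a fitted -1.13 ± 0.23 (adjusted p = 0.000364).

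SEMA5B, a class 5 semaphorin with thrombospondin repeats, was higher in FB (1.41 ± 0.35, adjusted p = 0.00468), BW (1.82 ± 0.35, adjusted p = 0.00296) and FW (1.38 ± 0.35, adjusted p = 0.00487) on days 4 to 8. BW reached 7.80 on day 4 and FB 7.00 on day 5, while FBW was detected on 1 of 4 late arrays and had its own high of 7.79 on day 3. SEMA5A, its paralogue, gave no call between arms. Its day 8 signal exceeded that of day 1, when 0 of 4 arrays detected it, at least 3.22-fold (adjusted p = 4.94e-05). SEMA4F was lower in FB (-0.59 ± 0.11, adjusted p = 0.000721) and FW (-0.78 ± 0.11, adjusted p = 8.62e-05). SEMA4B was also lower in FB (-0.67 ± 0.16, adjusted p = 0.0043) and in FW (-0.47 ± 0.16, adjusted p = 0.0272), the FW call ending without day 6 (-0.44, adjusted p = 0.118) or day 8 (-0.30, adjusted p = 0.108). SEMA6C was called lower in FB (-0.69 ± 0.16, adjusted p = 0.00331) and not in BW or FW, but FB minus FW was only -0.30 ± 0.16 (adjusted p = 0.849). SEMA4A was higher in FW (1.06 ± 0.39, adjusted p = 0.0356), with 7.19 on day 4 and 4.80 on day 6. The sign of this difference turned on day 8 (-0.27), and SEMA4A was detected on 2 of 4 late FW arrays and 1 of 4 in FBW. SEMA7A was called higher in FB and BW, but it was detected on 1 and 2 of their 4 late arrays and on 0 in FBW, so no fold is given. SEMA6D was detected on too few arrays to be tested between arms. SEMA4C, SEMA4G and SEMA6B gave no call on days 4 to 8, and SEMA4C was higher on day 8 than on day 1 by 0.53 ± 0.12 (adjusted p = 0.00125).

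Of the secreted class 3 semaphorins, SEMA3C, a ligand needed for outflow tract septation in mice, was lower in FB (-1.28 ± 0.40, adjusted p = 0.0166) and FW (-1.23 ± 0.40, adjusted p = 0.0189). The sign turned on day 8, when FB was at 6.51 and FW at 6.60 while FBW was at 5.93, after 6.85, 7.59 and 7.57 in FBW on days 4, 5 and 6. SEMA3E, the ligand of PLXND1, was higher in FW by 0.65 ± 0.17 (adjusted p = 0.00715), but its call ended without day 5 (0.39, adjusted p = 0.0536) or day 6 (0.59, adjusted p = 0.0558), and another SEMA3E probe gave -0.34 there (adjusted p = 0.354). SEMA3A, SEMA3B and SEMA3F gave no call on days 4 to 8. SEMA3F, a ligand that prefers NRP2, had a high of 7.58 on day 2, 7.52 on day 3 and 7.33 on day 4 in FBW, against 6.37 on day 0.

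Both neuropilins were lower in FB and FW, and NRP1 in BW as well. NRP1, co-receptor for class 3 semaphorins and for VEGFA, was detected on no day 0 or day 1 array. On days 4, 5, 6 and 8 it measured 4.43, 5.19, 5.85 and 7.73 in FB, 6.20, 7.05, 7.08 and 8.24 in BW, and 4.29, 4.59, 5.34 and 7.50 in FW. FBW was at 9.23, 9.04, 9.55 and 9.09, above all of them, while the other arms approached it on day 8. Over the window NRP1 was 10.7-fold lower in FB (-3.43 ± 0.44, adjusted p = 5.88e-05), 4.24-fold in BW (-2.08 ± 0.44, adjusted p = 0.00553) and 13.9-fold in FW (-3.80 ± 0.44, adjusted p = 2.28e-05). It was detected on 3 of 4 late FB arrays and 2 of 4 late FW arrays, so those folds rest in part on signals at background. The BW call ended without day 6 (-1.96, adjusted p = 0.0656). On day 8 NRP1 was higher than on day 1 in all 4 arms, at least 8.27-fold (adjusted p = 1.87e-05).

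NRP2, which prefers SEMA3F and VEGFC, was lower in FB (-1.87 ± 0.48, adjusted p = 0.00625) and FW (-1.64 ± 0.48, adjusted p = 0.0119), and BW gave -0.79 ± 0.48 (adjusted p = 0.252). On days 4, 5, 6 and 8 FB gave 4.46, 4.95, 5.46 and 5.51, and FW 4.92, 4.73, 5.56 and 6.09. BW had 4.85, 6.47, 6.96 and 6.45, and FBW 6.97, 8.38, 6.50 and 6.03, so BW came up a day after FBW and FW reached the FBW level on day 8. NRP2 was detected on 2 of 4 late arrays in both FB and FW. The FW call ended without day 5 (-0.98, adjusted p = 0.111). A second NRP2 probe gave -0.69 in FB (adjusted p = 0.112), -0.31 in BW and -0.79 in FW (adjusted p = 0.0676), none of them called, whereas the second NRP1 probe was called in each arm, at -2.26, -1.31 and -2.10. The endothelial marker list summed to 291 to 740 in FB, 332 to 1024 in BW, 299 to 871 in FW and 380 to 1416 in FBW on the late days. CDH5, EMCN, ERG, ESAM, KDR, PECAM1 and TIE1 were detected on no late FB or FW array, and of the whole list only ERG was undetected in BW and FBW. The part of endothelial or cardiac cells in the neuropilin differences was not tested.

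**Figure D4:**
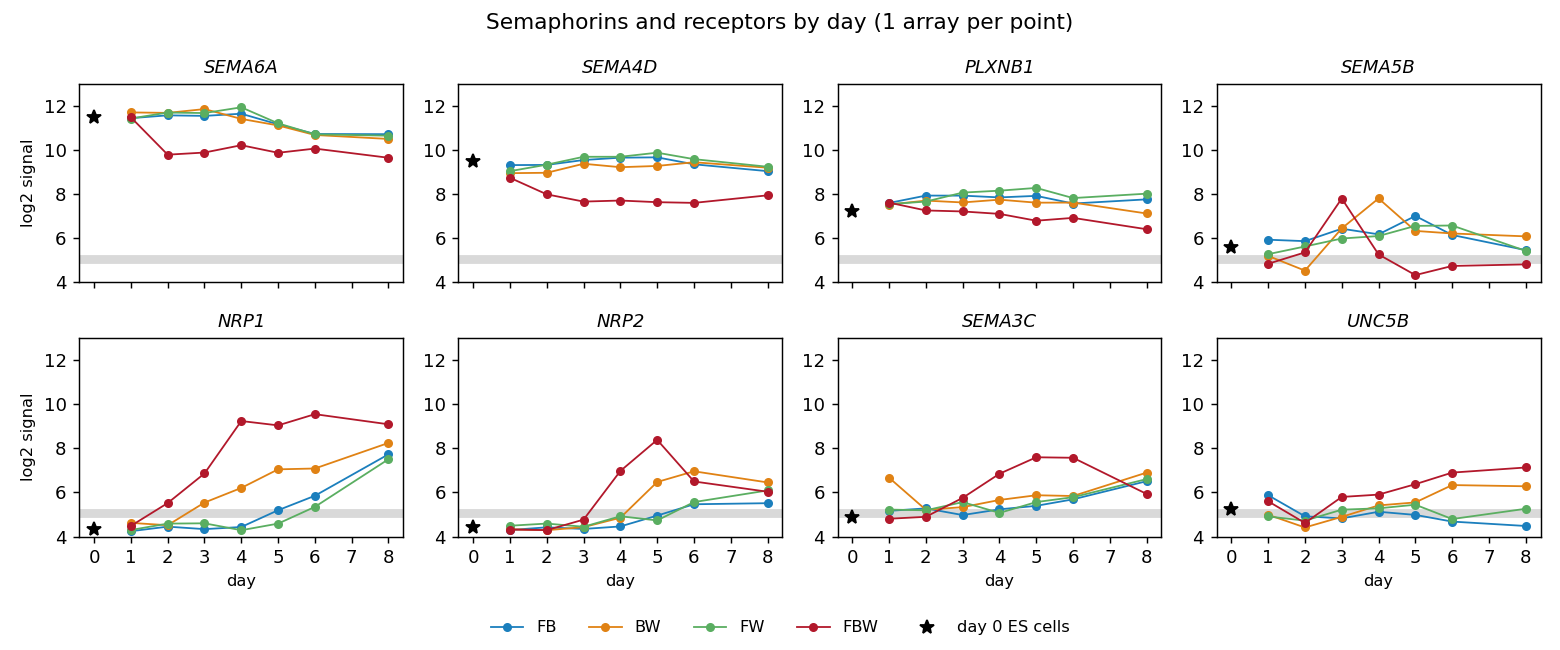
Normalised log2 signal against day for 8 semaphorins and receptors, 1 array per point, FB in blue, BW in orange, FW in green, FBW in red and the day 0 ES array as a star, with the grey band from 4.87 to 5.21 marking the background level. SEMA6A, SEMA4D and PLXNB1 run lower in FBW, and NRP1 is at 4.43 in FB on day 4, where FBW has reached 9.23.

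Among the other plexins, PLXNA3, a class A plexin, was lower by -0.40 ± 0.10 in FB (adjusted p = 0.00499) and -0.29 ± 0.10 in FW (adjusted p = 0.0228), and was higher on day 8 than on day 1 by 0.76 ± 0.11 (adjusted p = 1.17e-05). PLXND1, the endothelial plexin, was called lower in FB and FW, but it was detected on 0 of 4 late arrays in both and on 2 of 4 in FBW, so no fold is given. PLXNA1 was higher in FW by 0.57 ± 0.16 (adjusted p = 0.0105), with 1 day of 4 going the other way. PLXNB2 gave no call between arms and was higher on day 8 in each arm, by 1.03 ± 0.14 (adjusted p = 3.74e-06). PLXNA2, a SEMA6A receptor, was detected on 11 arrays. On days 2 and 3 it was at 4.76 and 4.54 in FB, 5.02 and 5.97 in BW, and 4.32 and 4.29 in FW. FBW reached 7.97 on day 2 and 7.75 on day 3, between 4.36 on day 1 and 5.38 on day 4, a high that the other arms lacked on these days. BW came up later: on day 4 its PLXNA2 signal was 1.22 above that of FBW and at least 4-fold above day 0.

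The SLIT ligands were lower in both FB and FW. SLIT2, a repellent that binds ROBO receptors, gave -1.57 ± 0.37 in FB (adjusted p = 0.00347) and -1.64 ± 0.37 in FW (adjusted p = 0.0024), and -0.51 ± 0.37 in BW (adjusted p = 0.328). FB measured 5.25, 5.79, 7.34 and 7.77 on days 4, 5, 6 and 8, FW 5.26, 5.52, 6.93 and 8.16, and FBW 7.06, 8.02, 9.37 and 7.97, so the gap was closed on day 8. SLIT3, its paralogue, was lower by -0.83 ± 0.26 in FB (adjusted p = 0.0169) and -1.15 ± 0.26 in FW (adjusted p = 0.00248), the FB call ending without day 5 (-0.58, adjusted p = 0.115) or day 8 (-0.74, adjusted p = 0.066). Both SLITs rose in all 4 arms by day 8, SLIT2 by 2.03 ± 0.46 (adjusted p = 0.000971) and SLIT3, detected on 0 of 4 day 1 arrays, at least 6.81-fold (adjusted p = 8.34e-08). Of the receptors, ROBO3 was lower in FB (-0.84 ± 0.16, adjusted p = 0.00093) and FW (-0.83 ± 0.16, adjusted p = 0.000902), though its late levels overlapped with those of FBW. ROBO1 gave no call on days 4 to 8 and had its highest signal, 8.81, in FBW on day 2.

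Of the netrins and their receptors, NTN4, a laminin-related netrin, was lower in FB (-0.84 ± 0.27, adjusted p = 0.0178), detected on 1 of 4 late arrays there, and in FW, where it was detected on 0 of 4 late arrays and FBW was at least 1.56-fold higher (adjusted p = 0.0051). The FB call ended without day 5 (-0.83, adjusted p = 0.0846) or day 6 (-0.83, adjusted p = 0.0768). BW had a high of 7.25 and 7.13 on days 3 and 4, and FBW one of 7.12 and 7.20 on days 2 and 3. NTN1, the founding netrin, was detected on 3 arrays, with 6.27 in FBW on day 2. UNC5B, a netrin receptor of endothelium, was detected on 0 of 4 late arrays in FB, and FBW was at least 2.71-fold higher (adjusted p = 0.000292). It was also lower in FW, by -1.38 ± 0.28 (adjusted p = 0.00135), and FBW signals were 5.90, 6.37, 6.90 and 7.13 over the late days. In BW it was lower on each late day but not called (-0.68 ± 0.28, adjusted p = 0.0957), while a second UNC5B probe was called there by limma (-0.45, adjusted p = 0.0402).

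UNC5A, a netrin receptor of neurons, peaked on day 5 in FB and FW, with 7.05, 8.54, 6.03 and 4.30 in FB and 6.41, 8.34, 6.96 and 4.42 in FW on days 4, 5, 6 and 8. It lay between 4.23 and 4.57 on the late FBW arrays, where it was not detected, and at 7.44 on day 0. FB was at least 2.80-fold higher than FBW (adjusted p = 0.0166) and FW at least 2.90-fold (adjusted p = 0.0136), although both ended near background on day 8. The FB call ended without day 4 (adjusted p = 0.0811) or day 6, and the FW call without day 6 (adjusted p = 0.0676). UNC5D, a dim member, was at least 1.16-fold higher in FB (adjusted p = 0.00133) and at least 1.18-fold in FW (adjusted p = 0.000987), and UNC5C at least 1.18-fold higher in FW (adjusted p = 0.0212). The 9 neuroectoderm and neuron markers summed to 3434 to 5903 in FB, 2496 to 3191 in BW, 2861 to 6504 in FW and 1551 to 4425 in FBW on days 4 to 8. Of the 9, between 4 and 6 were detected on each late FB array, 5 or 6 in BW and in FW, and 4 in FBW, while PAX6 and SOX1 were detected on no array of any arm. The part of any neural cell in the UNC5A signal was not tested.

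**Figure D5:**
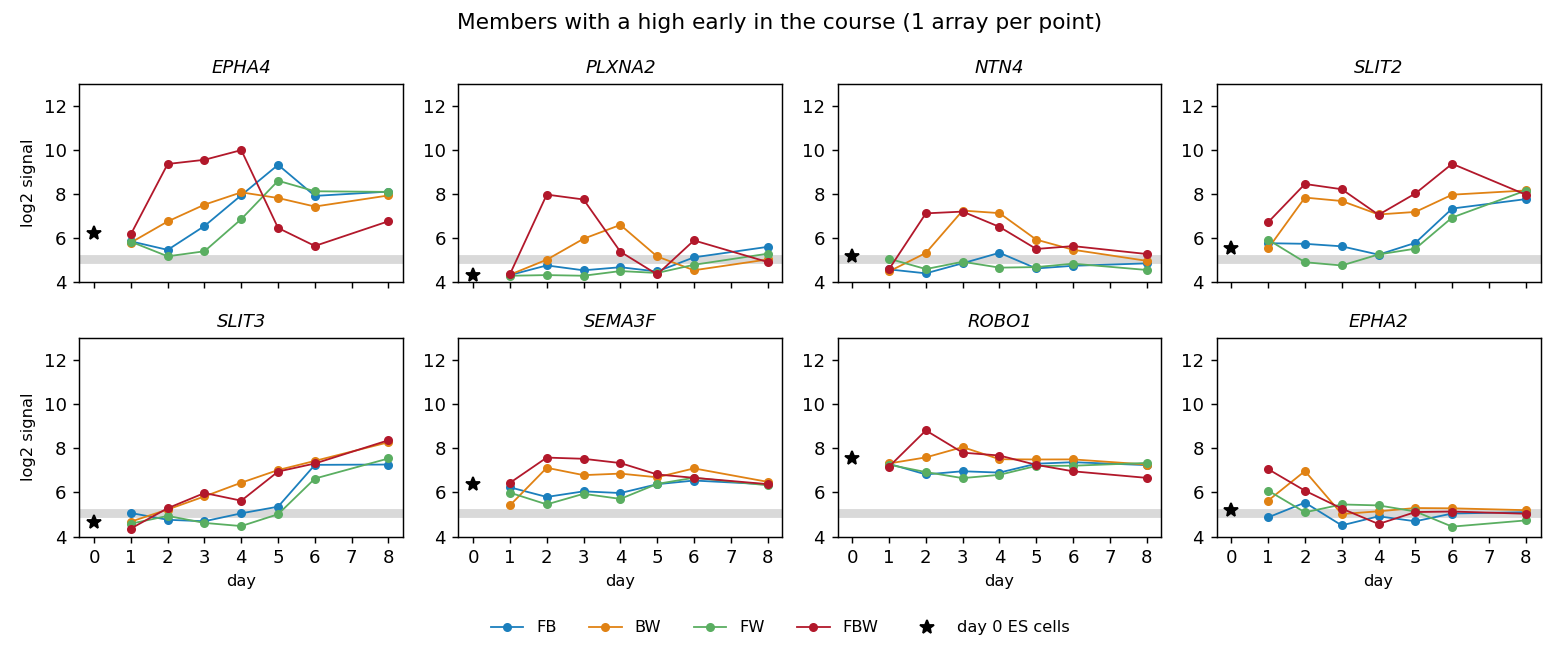
Normalised log2 signal against day for 8 genes with a high early in the course or a late climb, 1 array per point, FB in blue, BW in orange, FW in green, FBW in red and the day 0 ES array as a star, with the grey band from 4.87 to 5.21 marking the background level. In FBW, EPHA4 is at 9.36 to 9.99 on days 2 to 4 and PLXNA2 at 7.75 to 7.97 on days 2 and 3, with no like high in FB or FW on these days.

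On days 1 to 3, 43 of the genes were tested, and 1 was called. EPHB3 was lower in FW (adjusted p = 0.0484 by limma), with 4.49, 4.40 and 4.47 in FW, not above background on any of the 3 days, against 5.21, 6.33 and 7.04 in FBW, which was at least 2.22-fold higher. The call was lost without day 2 (adjusted p = 0.496) or day 3 (adjusted p = 0.508). FW had 0 of the genes higher and 1 lower, where 0.46% of 11514 genes were higher and 0.452% lower. FB had 0 and 0 by limma, beside 0.104% and 0.139% of all genes, and BW 0 and 0, beside 0.00869% and 0%. At an unadjusted p under 0.05 the numbers were 18 of 43 in FB, 6 in BW and 16 in FW, beside 28.2%, 12.4% and 29.5% of all genes.

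The counts in this window depended on day 1. Without it, 18 of 42 genes tested were called in FB, 5 in BW and 19 in FW, and 0 in each without day 2 or without day 3. Over all 11207 genes of that fit 12.8% were higher and 11.8% lower in FB, 2.17% and 0.955% in BW, and 12.9% and 11.7% in FW. On days 2 and 3 together EPHA4 was lower by -3.45 ± 0.25 in FB (adjusted p = 0.000905), -2.32 ± 0.25 in BW (adjusted p = 0.00915) and -4.16 ± 0.25 in FW (adjusted p = 0.000345). PLXNA2 was lower in all 3 arms too, by -2.36 in BW. It was not detected in FB or FW on these days, where FBW was at least 7.34-fold and 7.01-fold higher. SLIT2 was lower by -2.65 in FB, and in FW, where it was not detected, FBW was at least 9.73-fold higher. NTN4 was not detected in FB or FW, and FBW was at least 4.52-fold and 4.32-fold higher. SEMA6A was higher by 1.72 in FB, 1.93 in BW and 1.85 in FW, and SEMA4D by 1.61, 1.35 and 1.69. EPHA1 (1.76 in FB and 1.78 in FW), SEMA4A, SEMA3A and PLXNB1 were higher in FB and FW, and EFNA1, EFNB1, ROBO1, SEMA3F and SEMA6C were lower there. UNC5D was not detected in FBW on these days and was at least 1.28-fold higher in FB and 1.18-fold in FW. EPHB3 and NRP1 were not detected in FB or FW. FBW was at least 3.25-fold and 3.10-fold higher for EPHB3, and 2.30-fold and 2.20-fold for NRP1. SEMA6B was higher in FW by 0.96 ± 0.25 (adjusted p = 0.0335), and EPHB1 in BW by 1.46 ± 0.24 (adjusted p = 0.0333). With only 2 days per arm these calls rest on a spread shared by all arms.

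FB and FW, each lacking a different factor, were set against each other on days 4 to 8. Of the 47 genes 0 were called higher and 0 lower by limma, beside 0% and 0% of all 12060 genes, and 2 had an unadjusted p under 0.05, as had 6.34% of all genes. These were SEMA4G at 0.36 ± 0.15 and PLXNB1 at -0.29 ± 0.13 (FB minus FW, adjusted p = 0.740 and 0.784). A p that misses the threshold does not show that both arms were alike.

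Over the course, 48 of the genes were tested between day 8 and day 1, with the 4 arms as the repeats. On day 8 14 were higher and 4 lower, where 24.2% of 12662 genes were higher and 27.2% lower. All 3 ephrin-Bs, both neuropilins and both detected SLITs rose. NRP2, detected on 0 of 4 day 1 arrays, was at least 1.90-fold higher (adjusted p = 0.00631), a call that ended without the BW arm (adjusted p = 0.0578). EFNB2 rose by 1.96 ± 0.55 (adjusted p = 0.00556), EFNB3 by 2.19 ± 0.39 (adjusted p = 9.43e-05), EFNB1 by 1.73 ± 0.28 (adjusted p = 3.30e-05) and EPHB3, detected on 1 of 4 day 1 arrays, by 1.55 ± 0.23 (adjusted p = 1.54e-05). EPHA1 fell by 1.63 ± 0.56 (adjusted p = 0.0192), most of it in FBW, where day 8 was -4.44 below day 1, against -0.90 in FB, -0.41 in BW and -0.78 in FW. UNC5D was detected on 0 of 4 day 8 arrays, and day 1 was at least 1.26-fold higher (adjusted p = 0.00468). EFNB2 differed between day 8 and day 1 by 3.00 in FB, 2.18 in BW, 2.37 in FW and 0.29 in FBW.

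Against the single day 0 array the FBW course can only be described. By day 8, of the 46 genes detected on either array, 7 stood at least 4-fold above day 0 (EFNA1, EFNB1, EFNB3, EPHB3, NRP1, SLIT2 and SLIT3). Another 3 stood at least 4-fold below (EPHA1, EPHB1 and UNC5A), beside 4.82% of 11948 genes above and 4.11% below. The number above was 0 of 38 on day 1, 3 of 42 on day 2 (EPHA4, PLXNA2 and SLIT2) and 9 of 42 on day 3, beside 0.451%, 1.43% and 2.39% of all genes detected on either array. Of the 3 genes of day 2, SLIT2 alone was on the list on day 8, though it was missing from it on day 4. In FB and FW the list of genes above day 0 was empty through day 3 and held only EFNA1 on day 4. BW held EFNA1 from day 1 on and SLIT2 on days 2 and 3. It also held EFNB1 and NTN4 on day 3, and EFNB1, EPHB3, PLXNA2 and SEMA5B on day 4. The shares of all genes above were 0.249% in FB, 1.16% in BW and 0.288% in FW on day 3. On day 4 they were 0.681%, 1.63% and 0.608%.

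A list of 54 further genes of these pathways (cytoplasmic partners, other guidance ligands and GTPase regulators), of which 51 had a probe, was read in the same fits. On days 4 to 8, 12 of 40 tested were higher and 13 lower in FB, 6 and 8 in BW, and 12 and 14 in FW. Over all genes 27.9% were higher and 26.1% lower in FB, 13.2% and 12.5% in BW, and 29.9% and 28% in FW. CRMP1, a cytoplasmic mediator of semaphorin 3A signalling, was higher by 3.06 ± 0.21 in FB (adjusted p = 5.78e-07), 1.43 ± 0.21 in BW (adjusted p = 0.000702) and 3.17 ± 0.21 in FW (adjusted p = 3.55e-07). VEGFA, the growth factor that shares NRP1 with the semaphorins, was lower by -2.40 ± 0.30 in both FB and FW. FLRT2, an adhesion molecule that binds UNC5 receptors, was lower by -2.26 in FB, -1.83 in BW and -2.44 in FW, and RGMA, a repulsive guidance molecule, was higher by 2.24 in FB, 2.22 in BW and 2.26 in FW. RTN4R, the Nogo receptor, was higher by 1.46 ± 0.13 in BW. On days 1 to 3 FLRT2 was lower (-1.48) and DPYSL3, a relative of CRMP1, higher (1.46) in FW. From day 1 to day 8, 12 of 42 rose and 6 fell, beside 24.2% and 27.2% of all genes, among them FLRT3 (4.20 ± 0.68), CRMP1 (-2.62 ± 0.48) and FARP1 (1.44 ± 0.21).

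Second probes allow a check within these arrays. Of the 66 genes 26 had more than 1 probe, and for 12 another probe was detected well enough to test, in 68 comparisons. None of these, 0 of 68, went the other way by 0.5 or more in both probes, a rule that small differences cannot break. Where the chosen probe was called, 2 had an opposite sign. These were SEMA3E in FW (-0.34 against 0.65) and NRP2 on day 8 (-0.07, where the chosen probe was called higher). Opposite signs also occurred without a call, as for SEMA3E (-0.21 against 0.35) and SEMA5A (-0.25 against 0.37) in FB on days 4 to 8. For SLIT3 the other probe gave -0.95 in FB and -1.24 in FW, for UNC5B -0.98 and -0.89, and for EFNA1 2.96 on day 8 against day 1. Sizes thus differed by probe, and so did some directions.

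Cell type markers also differed between the arms, and guidance genes picked for the same sign are set beside them. Undifferentiated ES markers were higher than FBW on days 4 to 8 for 7 of 7 tested genes in FB, 5 of 7 in BW and 7 of 7 in FW, as were EPHA1, SEMA4D and SEMA6A. Cardiomyocyte markers were lower for 6 of 7 in FB and 6 of 7 in FW by limma, as were NRP1, EFNB3 and EPHB3. In BW these 3 guidance genes were lower too, but 0 of 7 cardiomyocyte markers were called lower by limma (3 at an unadjusted p under 0.05). Over all genes tested 27.9% were higher and 26.1% lower in FB, 13.2% and 12.5% in BW, and 29.9% and 28% in FW. NANOG and PRDM14 were detected on late arrays of FB, BW and FW and on no late FBW array. Surface ectoderm and amnion markers summed to 7340 to 17323 in FB, 11180 to 15980 in BW, 5033 to 17128 in FW and 7065 to 9520 in FBW. The part of cell content in the differences of the guidance genes was not tested.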

How the data were processed

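RNA of HuES6 cells was labelled and hybridised to Illumina bead arrays. The authors' raw table, made in GenomeStudio according to the tool list, per the submitters' processing notes (version not given in the sources used here), holds 1 intensity per probe on a linear scale, with a detection p-value deposited beside it. The authors' processed table, deposited as an intensity with negative values and a median of 6.88 on every array, served as an alternative. The deposited raw intensity was background corrected, quantile normalised and turned into log2 values by neqc of limma (version 3.58.1 under R 4.3.3) at an offset of 16, with negative controls inferred from the detection p-values. Probes with exactly 1 symbol in the annotation (30113 of 47323) were used. For a gene with several, the probe of highest mean signal was taken, and it entered a test if detected (p under 0.01) on 3 or more of that test's arrays.

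In limma (lmFit, eBayes with trend, whole table) the arms were set against FBW with day as a block, which the labels' days pair, separately for days 1 to 3 (12 arrays) and for days 4 to 8 (16 arrays). Residual degrees of freedom were 6 and 9. Day 8 against day 1 was a contrast in a fit over all 28 differentiating arrays, with arm as a block. Calls used a Benjamini-Hochberg adjusted p of 0.05 over all genes tested. The code was tested on simulated data. Genes picked by rule for array values were those called with 1 sign on every day, up to 24 by size, plus those of the widest FBW course. Array values are also printed for some genes outside this rule, EFNB2, SEMA3C, PLXNA2 and SEMA4A among them. The genes and lists were chosen with earlier results of these data known. Alternatives were quantile normalisation, the authors' table, other filters, every probe, array weights, no trend, no block, only the arms compared and leaving out each day or arm. The number of arrays limits the precision.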

Additional observations from a re-analysis of the deposited data

Results flagged for a closer look

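For each of 55 called differences on days 4 to 8, the 4 daily differences were compared with each other, and in 2 of them a single day stood apart by Dixon's criterion at 95%. Chance gives such a day in about 1 of 20 cases. ROBO3 in FB minus FBW was at -1.42 on day 4 and between -0.69 and -0.60 on the other days. NTN4 in FW minus FBW was at -1.85 on day 4 and between -0.82 and -0.72 on the other days. EPHB1 in FW minus FBW was higher on all late days (1.81 over the window) and lower on each of days 1 to 3, with daily differences between -0.61 and -0.19. That difference between the windows was not tested.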

How the results depend on the processing

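The counts of guidance genes called against FBW on days 4 to 8 moved with some settings, and those on days 1 to 3 moved more in proportion. On days 1 to 3, FB gave 0 in the main setting, 1 with no detection filter, 19 with array weights and 0 to 18 when a day was left out. BW gave 0, 1 with array weights and 0 to 5 when a day was left out. FW gave 1, 0 with quantile normalisation without background correction, 2 with no filter, 16 with array weights, 0 with no replicate block, 0 with only both arms compared and 0 to 19 when a day was left out. The highest of each range came without day 1. Over all genes, array weights called 3648 in FB, 24 in BW and 2639 in FW on those days, against 28, 1 and 105, and leaving out day 1 called 2757, 350 and 2757. The cause was not tested.

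On days 4 to 8, FW gave 18 calls with only both arms compared, a fit with fewer samples, against 28. In the same setting FB gave 19 against 27, and BW 14 against 11. Fewer guidance genes were tested there, 43 in FW, 42 in FB and 45 in BW, against 47. Over all genes this setting called 4932 of 11426 in FW, 4489 of 11301 in FB and 2441 of 11504 in BW, against 6983, 6510 and 3098 of 12060. Leaving out a day gave 19 to 27 in FB, 9 to 14 in BW, 21 to 28 in FW and 0 in FB minus FW. Over all genes it gave 4781 to 6061 in FB, 1166 to 2801 in BW and 5247 to 6504 in FW. Without day as a replicate block 21 were called in FB, 8 in BW and 21 in FW, and 14 between day 8 and day 1 without arm as the block, where leaving out an arm gave 17 to 20. Leaving out the block ended 18 calls between arms (EFNA1, EFNB1, NTN4, ROBO3, SEMA7A, SLIT2 and SLIT3 in FB, EPHB4, NRP1 and SEMA7A in BW, EFNB1, PLXNA3, ROBO3, SEMA4A, SEMA4B, SLIT2 and SLIT3 in FW, and EPHB3 in FW on days 1 to 3), added 1 (UNC5C in FB) and ended 4 over time (EPHA1, EPHA2, EPHB3 and UNC5D). Over all genes BW fell to 1477 with no block, to 1166 without day 5 and to 1216 without day 6, against 3098. With no block FB fell to 5446 and FW to 5995 over all genes, and day 8 against day 1 fell to 4971 from 6507. The 10 genes at least 4-fold from day 0 on FBW day 8 became 4 with quantile normalisation, 5 when detected on both arrays and 18 at 2-fold. For these alternatives no count over all genes is given here. Of 853 values of the genes named by the rule under an alternative, 804 kept their call, 49 lost it and 0 reversed. Signals near background limit UNC5C and UNC5D to bounds and leave SEMA7A and PLXND1 without a fold.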
